A study of Mus musculus with 6 samples.

Results

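The mouse liver transcripts of 9 genes of pyruvate dehydrogenase and the tricarboxylic acid (TCA) cycle were examined: Pdha1, Dlat, Cs, Idh3a, Idh2, Ogdh, Suclg1, Fh1 and Mdh2. They were read by all probe sets whose platform gene symbol is one of these 9 names (of 7163 named genes in the table), which gave 16 of the 11778 probe sets other than controls. The samples were 3 liver RNA preparations labelled Atp7b knockout (KO903, KO904 and KO905) and 3 labelled wild type (WT4, WT5 and WT6), each on 1 Affymetrix array. Atp7b encodes the copper-transporting ATPase whose loss causes Wilson disease, and the series title places the animals at an early point of copper build-up. The labels refer the knockout to an earlier description of the line and give no strain, sex, age or diet for either genotype. For 1 wild-type sample a label speaks of mice in the plural, and none of the sources used here says whether animals were pooled.

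The pyruvate dehydrogenase complex of the mitochondrial matrix converts pyruvate to acetyl-CoA. The TCA cycle then oxidises the acetyl group, passes electrons to the respiratory chain and, in liver, supplies carbon for glucose and lipid synthesis. Some of these enzymes carry a lipoyl group, and in human cell lines excess copper is known to bind lipoylated proteins such as the Dlat product. The comparison asks whether the transcripts of these enzymes differ in liver without Atp7b.

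For the transcripts of the 9 genes, no difference between the genotypes was called. In limma 0 of the 16 probe sets were called at an adjusted p under 0.05 (lowest adjusted p = 0.228), and 1 of 16 had an unadjusted p under 0.05. Among all 10620 tested probe sets, 4.14% were called, 2.05% as higher and 2.09% as lower in the knockout, and 17.9% had an unadjusted p under 0.05. For 16 probe sets, 0 calls lies close to the share of 4.14% and is not read as particular to these genes. All 16 had a mean signal of at least 100 and were tested. The difference was above 0 for 7 probe sets and below 0 for 9. Their median absolute log2 difference was 0.08, against 0.16 over all tested probe sets. The probe sets behind these medians were not matched for signal, and low signals are noisier. The knockout and wild-type values did not overlap in 3 of the 16 probe sets, Idh2, Ogdh and 1 of Dlat, and in 23.6% of all tested probe sets. Every log2 difference here is knockout minus wild type on log2(signal + 16), so a fold change understates the change of low signals.

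The deposited values were MAS 5.0 signals, scaled per array by the authors. Median signals were 337.3 to 342.8 on the knockout arrays and 330.8 to 337.3 on the wild-type arrays. WT5 and WT6 stood apart on the second principal component (-19.8 and 14.7, with the other 4 arrays between -5.64 and 5.23), which held 18.8% of the variance. The ratio of 3' to 5' actin signal was 1.17 to 1.22 on the knockout arrays, and on the wild-type arrays 1.28 in WT4, 1.1 in WT5 and 1.47 in WT6. The 1 probe set of Atp7b had 240.5, 231.8 and 184.9 in the knockout, against 259, 299.7 and 241 in wild type (log2 -0.27, adjusted p = 0.407 in limma). Its place relative to the disruption was not looked at, so it does not check the labels. The cell type markers that follow were each read from the brightest probe set of the gene. Hepatocyte markers such as Alb and Ttr were bright on all arrays, with summed signals over 8 genes of 123384 to 141152 in the knockout and 132551 to 158541 in wild type (2 of 8 genes with a log2 difference above 0 and 6 below, none called by limma, 1 at an unadjusted p under 0.05). Those 2 were Alb and Ttr, and the lowest was Tat, a liver aminotransferase (log2 -0.42, adjusted p = 0.0803 in limma), with no overlap between the groups. Kupffer cell and macrophage markers summed to 5634 to 7592 in the knockout and 4172 to 5756 in wild type (8 of 8 genes with a log2 difference above 0, none called by limma, 3 at an unadjusted p under 0.05). Dimmer probe sets had log2 differences of 0.17 and -0.31 for Csf1r, and of 0.15 and -0.11 for C1qb. Endothelial markers summed to 4832 to 6161 in the knockout and 3901 to 4604 in wild type (8 of 9 above 0, none called by limma, 5 at an unadjusted p under 0.05). Those 5 included Lyve1, the 1 gene below 0 (log2 -0.56, adjusted p = 0.202 in limma). Fcgr2b had a log2 difference of 0.61 on its brightest probe set (adjusted p = 0.0566 in limma). A dimmer probe set of Fcgr2b was called higher (log2 0.82, adjusted p = 0.0228 in limma), and others had -0.01 and 0.47. Stellate cell and fibroblast markers summed over 8 genes to 6414.3 to 7475.1 in the knockout and 5395.5 to 7161.0 in wild type. Of the 5 tested, 3 had a log2 difference above 0 and 2 below, with a median of 0.08. Among them only Rgs5 was called, as higher (log2 0.71, adjusted p = 0.0251 in limma, and up to 0.109 without KO903, KO904 or WT6). Alas2, the only erythroid marker in the table, was also called higher (adjusted p = 0.00183 in limma). The part of these in the results below was not tested. In such bulk RNA, fewer cells of a type and less RNA per cell cannot be told apart.

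**Figure D1:**
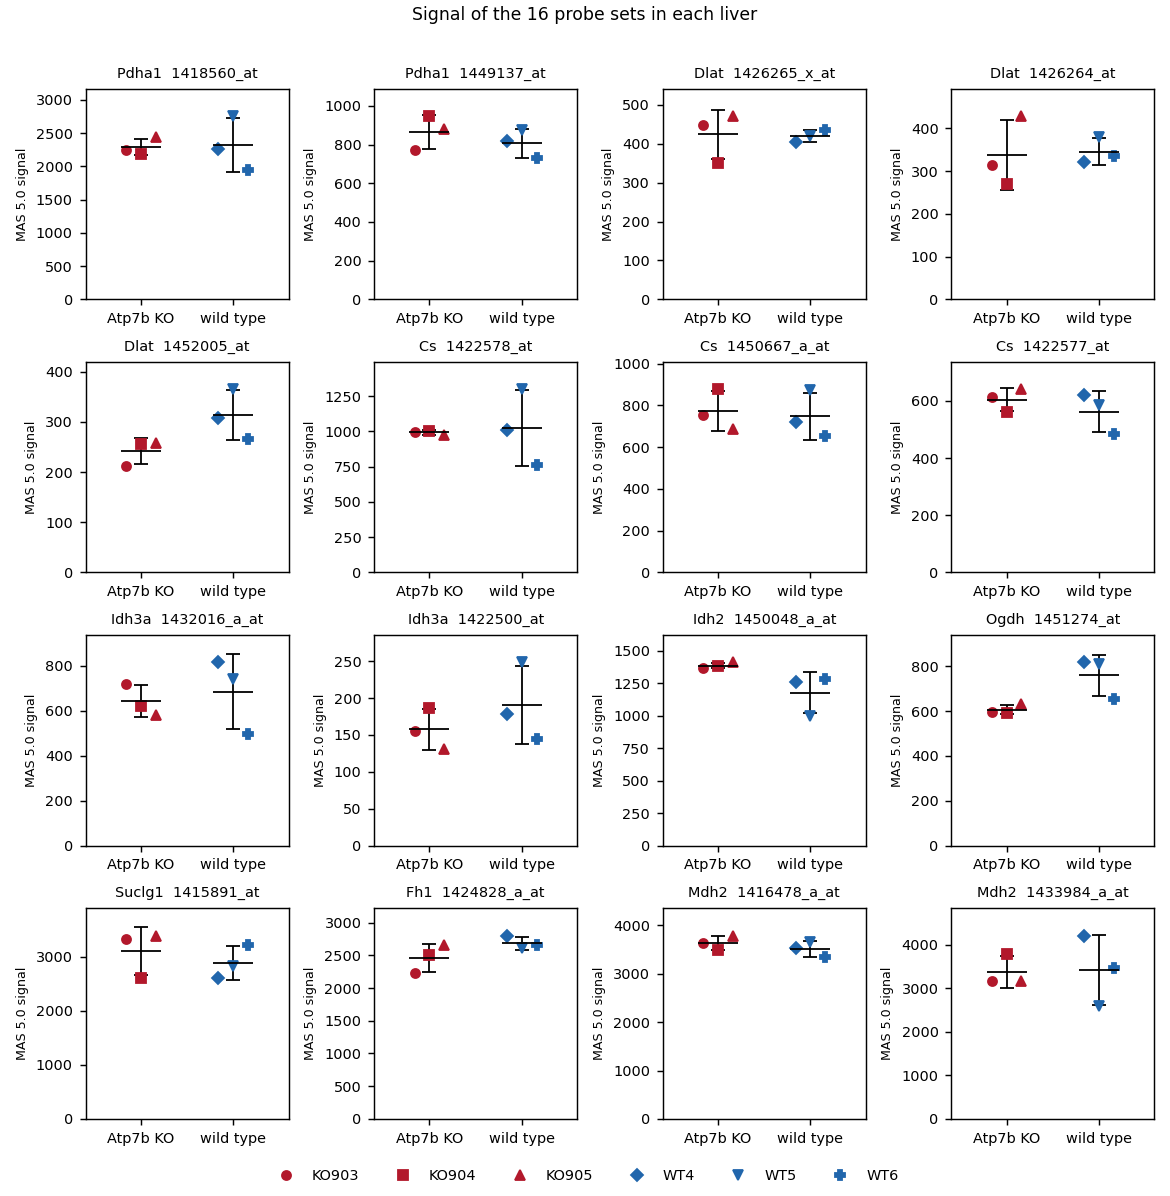
MAS 5.0 signal (linear axis from 0) of each of the 16 probe sets in the 3 Atp7b knockout livers (red) and the 3 wild-type livers (blue), 1 marker per sample, with the mean and SD of each group in black. The groups do not overlap in 3 panels (Dlat 1452005_at, Idh2 and Ogdh), and in the panel of Cs 1422578_at the wild-type values run from 760.8 to 1297.8 around close knockout values.

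Pdha1, on the X chromosome, encodes the E1 alpha subunit of pyruvate dehydrogenase, which decarboxylates pyruvate and is the site at which kinases switch the complex off. Its brighter probe set, 1418560_at, had signals of 2248.3, 2194 and 2435.8 in KO903, KO904 and KO905, against 2265.5, 2757.5 and 1943.5 in WT4, WT5 and WT6. All 3 knockout values lay inside the wild-type range. The log2 difference was -0.01 (95% interval -0.30 to 0.28, adjusted p = 0.992 in limma). The other probe set, 1449137_at, had 771.6, 947.4 and 880.9 in the knockout, against 816.1, 875.5 and 728.3 in wild type. Those groups overlapped too, with KO904 highest and WT6 lowest, and the log2 difference was 0.10 (95% interval -0.18 to 0.38, adjusted p = 0.749 in limma). The X-linked transcript Xist, which female cells express, was at 3617.3 to 4283.8 on the knockout arrays and 2942.5 to 4048 on the wild-type arrays on its brightest probe set (log2 0.17). Its other 2 probe sets were lower on all knockout arrays than on all wild-type arrays (log2 -0.53 and -0.61, adjusted p of 0.202 and 0.282 in limma). A part of sex in the values of Pdha1 was not tested.

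Dlat encodes the E2 subunit of the same complex, the acetyltransferase that carries the lipoyl groups. It was read by 3 probe sets designed from the same sequence accession, none of them called, and differences between the probe sets were not tested. On 1452005_at, the dimmest, the signals were 212, 256.9 and 258.7 in KO903, KO904 and KO905, against 307.8, 365.2 and 266.4 in WT4, WT5 and WT6. All 3 knockout values lay below all 3 wild-type values, with KO905 and WT6 the closest pair. The log2 difference was -0.34 (95% interval -0.69 to 0.00, adjusted p = 0.283 in limma), a fold of 0.789. On 1426264_at the signals were 314.7, 270.3 and 428.7 in the knockout, against 320.8, 380.8 and 335.2 in wild type, with both the lowest and the highest value in the knockout. On 1426265_x_at they were 449.1, 351.4 and 471.2 in the knockout, against 404.3, 418.7 and 435.6 in wild type, again with the knockout outside the wild-type range on both sides. The log2 differences of these were -0.05 (95% interval -0.43 to 0.33) and 0.00 (95% interval -0.31 to 0.32), with adjusted p of 0.912 and 0.992 in limma. The x in the last name marks a probe set that can share probes with other sequences.

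Cs encodes citrate synthase, which joins acetyl-CoA to oxaloacetate at the entry of the cycle and is widely used as a measure of mitochondrial content. Its brightest probe set, 1422578_at, had 993.8, 1004.8 and 976.1 in the knockout, against 1006.8, 1297.8 and 760.8 in WT4, WT5 and WT6. The knockout values were close together (991.6 ± 14.5, SD, n = 3) and the wild-type values far apart (1021.8 ± 268.8, SD, n = 3). The log2 difference was -0.01 (95% interval -0.38 to 0.36, adjusted p = 0.987 in limma). Probe set 1450667_a_at had 755.3, 877 and 684.5 in the knockout, against 718.9, 871.8 and 651.1 in wild type. Probe set 1422577_at had 612.4, 561.1 and 640.8 in the knockout, against 619.8, 584.5 and 484.7 in wild type. Both pairs of groups overlapped, and WT6 was the lowest of the 6 samples on all 3 probe sets of Cs. Their log2 differences were 0.05 (95% interval -0.27 to 0.37, adjusted p = 0.897 in limma) and 0.11 (95% interval -0.19 to 0.40, adjusted p = 0.748 in limma).

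Idh3a encodes the catalytic alpha subunit of the NAD-linked isocitrate dehydrogenase, which oxidises isocitrate to 2-oxoglutarate. Its brighter probe set, 1432016_a_at, had 721.4, 622.4 and 583.8 in the knockout, against 815.8, 743.8 and 499.1 in WT4, WT5 and WT6. The knockout values lay inside the wild-type range, and the log2 difference was -0.07 (95% interval -0.46 to 0.32, adjusted p = 0.885 in limma). Probe set 1422500_at was dim, with 155.5, 186.5 and 130.6 in the knockout, against 177.8, 248.2 and 144.9 in wild type. WT5 was the highest and KO905 the lowest, and the log2 difference was -0.23 (95% interval -0.69 to 0.22, adjusted p = 0.62 in limma), or -0.04 without WT5 and -0.40 without WT6.

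Idh2 encodes the mitochondrial NADP-linked isocitrate dehydrogenase, which makes NADPH in the matrix, where it serves antioxidant enzymes. Its 1 probe set, 1450048_a_at, had 1366.5, 1383.6 and 1410.8 in the knockout, against 1257, 1000.5 and 1280.5 in WT4, WT5 and WT6. All knockout values lay above all wild-type values, and WT5 was the lowest. The log2 difference was 0.24 (95% interval -0.03 to 0.51, adjusted p = 0.34 in limma), a fold of 1.18. It was 0.13 without WT5 and up to 0.30 with another sample left out. Of all tested probe sets, 13.2% had the 3 knockout values above the 3 wild-type values.

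Ogdh encodes the E1 subunit of 2-oxoglutarate dehydrogenase, which makes succinyl-CoA by the same kind of lipoyl chemistry as pyruvate dehydrogenase. Its 1 probe set, 1451274_at, had 594, 593.3 and 630.8 in the knockout, against 816.3, 807.9 and 653.3 in WT4, WT5 and WT6. All knockout values lay below all wild-type values, with WT6 the closest to them. The mean signal was 606.0 ± 21.5 in the knockout, against 759.2 ± 91.8 in wild type (SD, n = 3 each). The log2 difference of -0.31 (95% interval -0.59 to -0.03, a fold of 0.806) was the only 1 of the 16 whose interval left out 0, and it did not pass the threshold over all probe sets (adjusted p = 0.228 in limma). It stayed between -0.41 and -0.26 with each sample left out in turn. Of all tested probe sets, 10.4% had the 3 knockout values below the 3 wild-type values, as did Ogdh and 1 probe set of Dlat.

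Suclg1 encodes the alpha subunit of succinyl-CoA synthetase, the step of the cycle that makes a nucleoside triphosphate directly. Its signals on 1415891_at were 3321.8, 2601.5 and 3389.4 in the knockout, against 2598.6, 2828.3 and 3221 in wild type. KO903 and KO905 were the highest while KO904 lay beside WT4, and the log2 difference was 0.10 (95% interval -0.18 to 0.39, adjusted p = 0.75 in limma). Fh1 encodes fumarate hydratase, which turns fumarate into malate. Its signals on 1424828_a_at were 2234.9, 2504.7 and 2654 in the knockout, against 2800.2, 2607.7 and 2649.7 in wild type. KO905 lay between WT5 and WT4, and the log2 difference was -0.13 (95% interval -0.36 to 0.10, adjusted p = 0.588 in limma).

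Mdh2 encodes the mitochondrial malate dehydrogenase, which regenerates oxaloacetate and also takes part in the malate-aspartate shuttle. On 1416478_a_at its signals were 3636.1, 3495 and 3787.8 in the knockout, against 3532.1, 3660.8 and 3336.1 in wild type. This was the steadiest of the 16 probe sets, with the highest sample 1.14 times the lowest, and the log2 difference was 0.05 (95% interval -0.16 to 0.26, adjusted p = 0.83 in limma). On 1433984_a_at the signals were 3159.8, 3785.7 and 3170.6 in the knockout, against 4205.1, 2599.6 and 3470.9 in WT4, WT5 and WT6. Here the wild-type samples held both the highest and the lowest value, and the log2 difference was 0.00 (95% interval -0.35 to 0.35, adjusted p = 0.999 in limma).

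**Figure D2:**
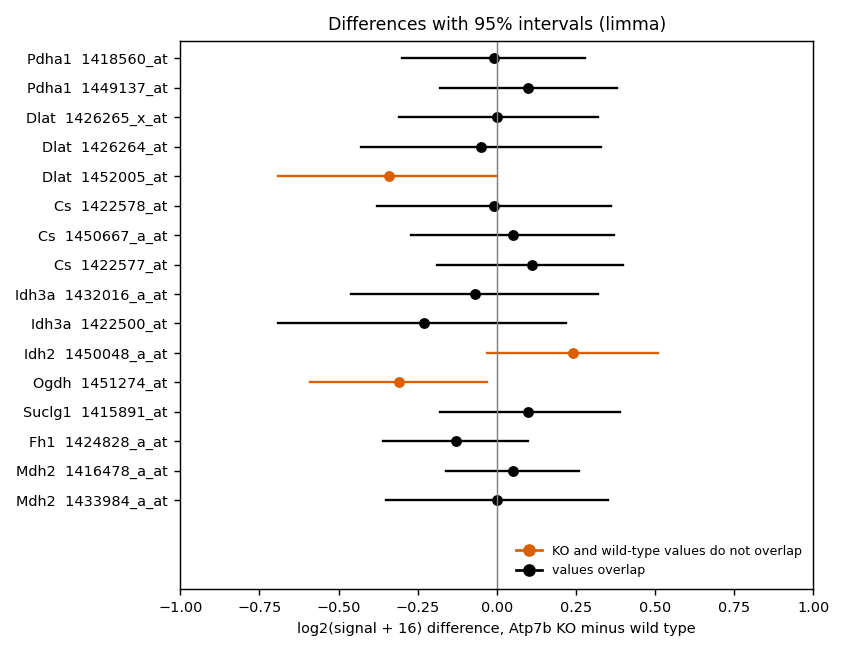
Log2 difference (Atp7b knockout minus wild type, on log2(signal + 16)) of each of the 16 probe sets, with the 95% interval from limma, in the order of the pathway; orange marks probe sets whose knockout and wild-type values do not overlap. The intervals run from -0.69 at the lowest to 0.51 at the highest, and only that of Ogdh leaves out 0.

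The intervals give the differences that the values of 3 arrays per genotype leave possible. All 16 lay within a log2 difference of -1 to 1, as did the intervals of 94.8% of all tested probe sets, and 12 of the 16 lay within -0.5 to 0.5. Read from the brightest probe set of each gene, 4 genes had a difference above 0 and 5 below 0, with a median of -0.01. The same median over all 6604 tested genes was 0.03. Without WT5 the median of the 9 genes was 0.08, and without WT6 it was -0.13. Of the 5 genes with more than 1 probe set, only Idh3a had all of them on 1 side of 0.

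Several of these probe sets spread more widely among the wild-type livers than among the knockout livers, as the map of deviations shows. The SD of log2 signal was larger in wild type than in the knockout for 11 of 16 probe sets (68.8%), and for 55.1% of all tested probe sets. WT6 was the lowest of the 6 samples for 7 of the 16, among them all 3 of Cs and both of Pdha1. WT5 was above WT6 for 11 of the 16 (68.8%), and for 49.8% of all tested probe sets. The reverse held for Idh2, Suclg1, Fh1, Mdh2 1433984_a_at and Dlat 1426265_x_at. The 11 with WT5 above WT6 include all 3 probe sets of Cs and both of Idh3a and of Pdha1. Probe sets of the same gene are not independent and no count by gene is given, so these shares are not read as particular to these genes. In the knockout, KO905 was the highest of the 6 samples for 6 probe sets. No share over all tested probe sets is given for this count or for that of WT6, so neither is read as particular to these genes. WT5 and WT6 are also the arrays with the lowest and the highest 3' to 5' actin ratio (1.1 and 1.47). The same ratio for Gapdh was 0.866 in WT5 and 0.99 in WT6, with the other 4 arrays between 0.815 and 0.895, and the part of RNA quality in these differences was not tested.

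**Figure D3:**
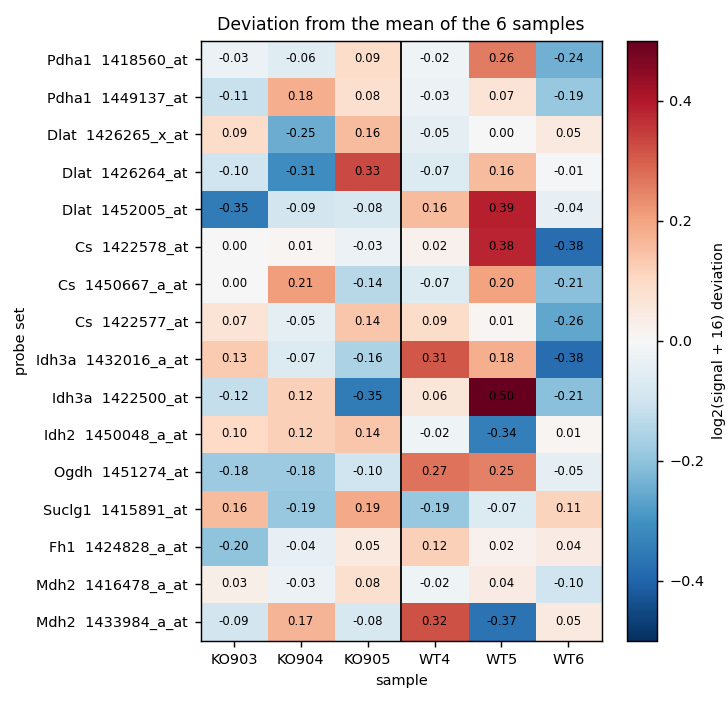
Deviation of each sample from the mean of all 6 samples, on the log2(signal + 16) scale, for the 16 probe sets (down the page) in the 3 Atp7b knockout and 3 wild-type livers (across). WT5 lies at 0.50 for Idh3a 1422500_at, the widest deviation on the map, and WT5 and WT6 lie at 0.38 and -0.38 for Cs 1422578_at.

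The start regions of the genes were taken from RefSeq promoter windows of build GRCm38.p6, which held 13 windows for 8 of the 9 genes. Idh3a had none, and Ogdh had several, some of them overlapping. Their median GC content was 59.7%, against 52.7% over all 32851 windows. None of the 13 windows, on either strand, held the core motif of NRF1 (in 4.6% of all windows), the ETS core bound by GABP (CCGGAAG, in 8.86%) or the oestrogen-related receptor core (TNAAGGTCA, in 1.28%). These are motifs of factors known to act on nuclear genes for mitochondrial proteins. Counted by gene, 0 of the 8 held any of them, against 5.19%, 9.93% and 1.43% of all genes. The core of the metal response element (TGCACNC or TGCGCNC, a window with either counted once) was in 25.7% of all windows and in 3 of the 13, 1 of Dlat and 2 overlapping ones of Ogdh. By gene it was in 2 of the 8, against 28.2% of all genes. Shown are the 250 bases before the start of the genes that have 1 window and a probe set with no overlap between the groups, at chr9:50659781-50660030 (minus strand) for Dlat and chr7:80115351-80115600 (minus strand) for Idh2, with metal response cores in capitals.
Dlat: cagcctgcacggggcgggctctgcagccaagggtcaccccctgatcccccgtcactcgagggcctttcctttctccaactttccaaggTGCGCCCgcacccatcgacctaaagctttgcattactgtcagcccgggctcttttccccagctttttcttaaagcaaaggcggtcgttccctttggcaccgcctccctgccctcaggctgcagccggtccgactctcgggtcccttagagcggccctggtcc
Idh2: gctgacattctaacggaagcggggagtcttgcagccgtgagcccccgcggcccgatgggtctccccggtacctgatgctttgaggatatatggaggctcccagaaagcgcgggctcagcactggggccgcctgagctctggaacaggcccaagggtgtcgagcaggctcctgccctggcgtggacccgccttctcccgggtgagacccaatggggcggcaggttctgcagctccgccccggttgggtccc

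The other genes of these pathways were read from 6 lists of 71 genes, of which 53 were tested, each on its brightest probe set. In limma 1 of the 53 was called lower and 0 higher, with 8 at an unadjusted p under 0.05, against 3.94% called among all tested genes (2.14% higher and 1.8% lower). Among the other subunits and regulators of pyruvate dehydrogenase, 4 genes were tested and limma called none (1 at an unadjusted p under 0.05). Pdk1, a kinase that inactivates the complex by phosphorylating the Pdha1 product, had 785.2, 945.7 and 1133.8 in the knockout, against 1165.4, 1359.6 and 1530 in wild type. All knockout values lay below all wild-type values (log2 -0.50 ± 0.15 SE, adjusted p = 0.101 in limma), and its other probe set had a log2 difference of -0.48. The kinase gene Pdk2 and the E1 beta subunit gene Pdhb had log2 differences of -0.10 and -0.15, and a dimmer probe set of Pdhb had 0.03. Among 9 other TCA cycle subunits limma called none (1 at an unadjusted p under 0.05), with a median of 0.00. Of these, the succinate dehydrogenase genes Sdhd (log2 0.22, adjusted p = 0.261) and Sdhb (log2 0.18, adjusted p = 0.335) and the isocitrate dehydrogenase subunit gene Idh3b (log2 0.13, adjusted p = 0.579) had the smallest p in limma.

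Around the cycle, in the list of pyruvate entry, anaplerosis and carriers, limma called none of 15 genes (3 at an unadjusted p under 0.05). Mpc1, a subunit of the carrier that brings pyruvate into mitochondria, had 4730.4, 4576.1 and 4894.1 in the knockout, against 3671.1, 3286.6 and 3894.4 in wild type. The knockout values were all higher, and the log2 difference of 0.39 ± 0.10 (SE) fell just outside the threshold (adjusted p = 0.0549 in limma). Slc25a10, the mitochondrial dicarboxylate carrier, had a log2 difference of 0.37 on its brightest probe set (adjusted p = 0.0884 in limma), and its other probe set rose (log2 0.61 ± 0.12 SE, adjusted p = 0.0156 in limma). On that other probe set the signals were 1417.5, 1254.3 and 1188.4 in the knockout, against 848.7, 867.5 and 788.7 in wild type, with no overlap, and this call ended without KO903 or KO904 (adjusted p up to 0.0701). Acly, which splits exported citrate for lipid synthesis, had 1913.4, 2124.5 and 3044.5 on its brightest probe set in the knockout, against 4712, 6369.7 and 2986.9 in wild type. KO905 lay just above WT6, and the log2 difference was -0.95 ± 0.24 (SE; adjusted p = 0.0554 in limma, and -1.24 with adjusted p = 0.0108 without WT6). Another probe set of Acly fell (log2 -1.09 ± 0.19 SE, adjusted p = 0.0104 in limma, or 0.0592 without KO904) and the dimmest had a log2 difference of -1.13 (adjusted p = 0.142 in limma).

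Among 7 genes of lipoylation and other lipoyl enzymes, limma called none (1 at an unadjusted p under 0.05). Lias, the lipoyl synthase that makes the cofactor carried by Dlat, had 487.9, 527.3 and 523.1 in the knockout, against 395.8, 317.8 and 369 in wild type. The groups did not overlap, and the log2 difference of 0.49 ± 0.13 (SE) did not pass (adjusted p = 0.0617 in limma). Lipt1, a lipoyl transferase, had 0.41 (adjusted p = 0.299) and Bckdhb, of branched-chain keto acid dehydrogenase, 0.14 (adjusted p = 0.56 in limma). Of 6 regulators of mitochondrial biogenesis limma called none (1 at an unadjusted p under 0.05), and 5 had log2 differences below 0. These included the coactivator gene Ppargc1a (log2 -0.57, adjusted p = 0.186, and -0.14 to -0.61 on its other 3 probe sets), its relative Ppargc1b (log2 -0.34, adjusted p = 0.321) and the receptor gene Esrra (log2 -0.36, adjusted p = 0.375 in limma). With 1 sample left out the difference came down to -0.33 for Ppargc1a (without KO903), and without WT6 to -0.15 for Ppargc1b and -0.19 for Esrra.

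Of 12 other mitochondrial markers 1 was called by limma, Vdac2, a channel of the outer mitochondrial membrane. It had 1650.1, 1666.5 and 1688.7 in the knockout, against 2326.8, 2345.7 and 2247 in wild type, and fell, with all knockout values below all wild-type values (log2 -0.46 ± 0.10 SE, adjusted p = 0.0248 in limma). The call ended without KO903, KO904, KO905, WT4 or WT6 (adjusted p up to 0.0899) and in eBayes without a trend (adjusted p = 0.0621), while the log2 difference stayed between -0.49 and -0.44 over all alternatives. The related channel gene Vdac1 had a log2 difference of -0.11 on its brightest probe set, and the carnitine transferase gene Cpt2 0.32 on its brightest (0.07 without WT6) and -0.06 on its other probe set, none of them called. The median of this list was -0.04.

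**Figure D4:**
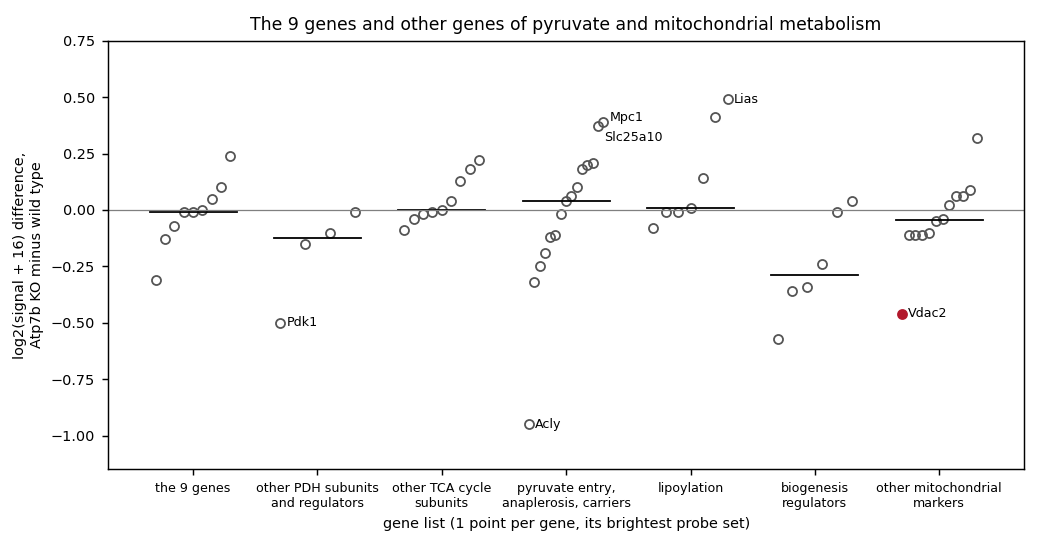
Log2 difference (Atp7b knockout minus wild type, on log2(signal + 16)) of each tested gene on its brightest probe set, for the 9 genes and the 6 other lists; black lines are list medians, the filled red point is the gene called by limma (Vdac2), and labels name genes with an adjusted p under 0.12. The 9 genes lie between -0.31 and 0.24, with Acly at -0.95 the lowest point of all the lists.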

How the data were processed

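The deposited values were intensity values, MAS 5.0 signals on a linear scale that the authors scaled per array to a target average of 350, per the labels. MAS 5.0 subtracts mismatch signals, which makes low signals noisy. The table held 11811 probe sets, 33 of them controls; the sources used here do not say how they were chosen.

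The platform annotation gave the gene names (10776 had 1 symbol, 418 several and 584 none; 0 symbols changed through the RefSeq table). None of the 16 analysed here had several symbols. Signals were tested as log2(signal + 16) with limma (lmFit and eBayes with an intensity trend; two-sided), adjusting by Benjamini-Hochberg over the 10620 probe sets with a mean signal of at least 100. No exact permutation test of 3 against 3 samples can go below 0.1. The labels do not say that the animals are distinct, so p-values measure only the spread of these samples. The number of arrays limits the precision.

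The 9 genes, the gene lists and the tests were chosen with earlier results of these data known. The metal response element search was added after the values were seen. Named outside the 9 were Atp7b, Xist, example markers and, in each list, called genes or the 3 with the smallest p. The fit was also run on simulated data, and the share of differences that it recovered is not given here. Alternatives were quantile normalization, median centring, a pseudocount of 1 or 64, no filter or a minimum of 200, eBayes without a trend or robust, array weights, each sample left out, and a threshold of 0.10. Versions were R 4.3.3, limma 3.58.1, Python 3.11.15 and matplotlib 3.10.9.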

Additional observations from a re-analysis of the deposited data

How the results depend on the processing

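None of the 16 probe sets passed the threshold in limma under any of the alternatives run, including a threshold of 0.10. Of 239 recomputed log2 differences of these probe sets, 214 kept their sign and 25 did not, all of them for probe sets whose difference was between -0.07 and 0.05. The cause of the turned signs was not tested. After quantile normalization the difference was 0.00 for Cs 1422578_at, 0.03 for Mdh2 1433984_a_at, 0.03 for Pdha1 1418560_at and -0.02 for Dlat 1426265_x_at, which was also -0.02 after median centring. With array weights it was 0.02 for Cs 1422578_at and 0.02 for Pdha1 1418560_at. With each sample left out in turn the difference ran from -0.20 to 0.18 for Cs 1422578_at, -0.04 to 0.16 for Cs 1450667_a_at, -0.28 to 0.07 for Idh3a 1432016_a_at, -0.18 to 0.16 for Mdh2 1433984_a_at, -0.13 to 0.13 for Pdha1 1418560_at, -0.07 to 0.13 for Dlat 1426265_x_at and -0.23 to 0.09 for Dlat 1426264_at. Among those that kept their sign it ran from -0.40 to -0.04 for Idh3a 1422500_at, 0.03 to 0.22 for Suclg1, -0.18 to -0.06 for Fh1, 0.03 to 0.18 for Pdha1 1449137_at and 0.00 to 0.18 for Cs 1422577_at. The median of the 9 genes was -0.13 to 0.08 over the same settings. Over all tested probe sets, 440 calls became 175 (without KO904) to 469 (without WT5) with a sample left out, where fewer samples were fitted, and 786 at a threshold of 0.10. They became 313 in eBayes without a trend, 550 with array weights and 434 to 455 under the other alternatives. In the other pathway lists the 1 call became 0 to 1 with a sample left out (Vdac2 without WT5, but Acly in place of Vdac2 without WT6), 2 after quantile normalization and 2 at a minimum signal of 200 (both adding Mpc1), 0 in eBayes without a trend, 3 with array weights (adding Mpc1 and Acly) and 5 at a threshold of 0.10. No paired analysis was possible because the sample numbers of the genotypes do not match.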
